A study of Mus musculus with 4 samples.

Results

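Transcriptional output of the E protein genes and of their ID inhibitors was examined in thymocytes that carry both CD4 and CD8 (double positive, DP), with and without Tox4. The genes were chosen by symbol: Tcf3, Tcf4, Tcf12, Id1, Id2 and Id3 are 6 of the 24984 rows of the fragment count table, and all 6 had a mean CPM, the fragment count scaled to a common library total, of at least 1. TTchem-seq was used, in which RNA made during a pulse of 4-thiouridine is labelled, fragmented, enriched and sequenced, so that the count over a gene, introns included, is meant to measure RNA made around the time of the pulse. The sample labels instead describe poly(A) capture, which would favour processed RNA, and which of these descriptions holds for the libraries was not tested. There were 2 WT libraries, labelled Tox4;F/F, from mice with loxP sites around exons 4 to 6 of both Tox4 alleles, and 2 cKO libraries, labelled Tox4;F/F;Lck+, in which a Cre transgene is added to the same floxed alleles. As the study describes it, Cre is driven by the proximal Lck promoter and deletes from the DN3 stage on, before the DP stage. The mice were littermates of C57BL/6 background at 6 to 8 weeks of age. How the DP cells were isolated for TTchem-seq is not given in the sources used here. The study describes its replicates as biological, and which animals went into each library is not given in the sources used here, so p-values measure the spread between these libraries.

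E proteins are transcription factors with a basic helix-loop-helix domain. They bind E-box sequences in DNA as homodimers or as heterodimers with tissue-specific partners, and in the thymus they support the rearrangement and expression of T cell receptor genes and hold DP cells at the checkpoint before selection. Tcf3 and Tcf12, whose products are best known as E2a and HEB, are the main E proteins of thymocytes, whereas Tcf4 is best known from plasmacytoid dendritic cells and B cells. ID proteins have the helix-loop-helix but lack the basic region, so a dimer with an ID protein does not bind DNA. Id3 is induced by T cell receptor signalling through EGR factors, Id2 is prominent in innate-like lymphocytes and mature effector cells, and Id1 is a common target of bone morphogenetic protein signalling. Despite their symbols, Tcf3, Tcf4 and Tcf12 are not related to the TCF/LEF factors Tcf7 and Lef1.

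The start regions are shown first, because the members differ in how many starts a single count pools. Of the 6 genes, 4 (Tcf3, Tcf12, Id2 and Id3) had a window in the RefSeq promoter table of GRCm38.p6, which runs from 250 bases before to 50 bases after a start. Tcf12 had 3 windows, 2 at its distal end and 1 far inside the gene, and these coincided with the 3 starts counted in the table. Output from the distal and the internal starts of Tcf12 was thus pooled. Capitals mark E-boxes, searched as CANNTG, which reads the same on both strands.
Tcf12, outermost distal start, chr9:72111770-72112069, minus strand: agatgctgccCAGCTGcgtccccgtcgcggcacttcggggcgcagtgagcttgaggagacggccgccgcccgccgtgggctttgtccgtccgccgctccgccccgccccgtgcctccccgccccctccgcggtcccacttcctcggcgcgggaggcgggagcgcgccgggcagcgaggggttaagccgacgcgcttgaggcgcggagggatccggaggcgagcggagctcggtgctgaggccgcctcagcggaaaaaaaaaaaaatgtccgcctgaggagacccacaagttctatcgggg
Tcf12, internal start, chr9:71896047-71896346, minus strand: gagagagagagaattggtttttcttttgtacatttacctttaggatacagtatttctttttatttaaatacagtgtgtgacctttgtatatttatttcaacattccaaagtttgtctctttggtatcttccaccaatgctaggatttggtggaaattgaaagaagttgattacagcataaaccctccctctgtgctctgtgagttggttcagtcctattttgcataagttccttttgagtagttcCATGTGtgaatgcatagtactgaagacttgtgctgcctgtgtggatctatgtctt
Tcf3, chr10:80433586-80433885, minus strand: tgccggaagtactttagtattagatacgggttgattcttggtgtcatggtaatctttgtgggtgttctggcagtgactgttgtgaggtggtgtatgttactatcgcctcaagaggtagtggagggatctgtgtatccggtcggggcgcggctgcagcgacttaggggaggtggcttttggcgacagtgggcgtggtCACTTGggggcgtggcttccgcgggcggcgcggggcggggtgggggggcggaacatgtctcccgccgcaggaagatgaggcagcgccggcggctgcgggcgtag
Id2, chr12:25096043-25096342, minus strand: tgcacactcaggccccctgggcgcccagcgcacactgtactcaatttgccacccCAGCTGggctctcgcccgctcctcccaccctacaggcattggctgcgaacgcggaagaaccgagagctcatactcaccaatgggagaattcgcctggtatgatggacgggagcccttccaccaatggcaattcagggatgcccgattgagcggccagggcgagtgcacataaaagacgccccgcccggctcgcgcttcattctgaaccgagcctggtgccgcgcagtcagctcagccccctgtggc
Id3, chr4:136143572-136143871, plus strand: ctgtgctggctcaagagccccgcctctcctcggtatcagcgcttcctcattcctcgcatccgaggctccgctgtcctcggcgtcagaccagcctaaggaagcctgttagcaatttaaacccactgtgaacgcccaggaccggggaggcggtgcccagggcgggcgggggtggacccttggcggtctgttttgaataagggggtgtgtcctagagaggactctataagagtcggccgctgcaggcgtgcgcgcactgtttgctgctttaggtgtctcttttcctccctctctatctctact

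The window of the outermost Tcf12 start held 1 E-box, CAGCTG, and that of Id2 held 1 of the same letters. Both are of the form CAGNTG, which E proteins prefer. The internal Tcf12 window held 1 E-box (CATGTG), the Tcf3 window 1 (CACTTG), the remaining distal Tcf12 window 2, and the Id3 window 0. E-boxes are common: 72.3% of the 32851 windows of this table held CANNTG and 51.4% held CAGNTG, counted within the former. The 9-letter EGR motif GCGNGGGCG, searched on both strands, was in 5.55% of all windows and in 0 of the 6 windows of these genes. The GC content was 71.7% and 75.7% in the distal Tcf12 windows against 36.3% in the internal one. These matches describe the letters in the windows and are not binding sites.

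The libraries held between 38429786 and 48690591 fragments. Xist, transcribed from the inactive X chromosome of female cells, had 172 CPM in WT replicate 1 but between 0.0 and 2.36 CPM elsewhere, although the methods describe gender-matched mice. WT replicate 1 also stood apart in 8 cell cycle markers, which summed to 218 CPM there and to between 369 and 471 CPM in the other libraries. Estimates without this library are given beside the 6 genes and the called genes of the lists, and for other genes where the direction turned. The deleted gene, Tox4, measured 74.04 and 70.3 CPM in WT against 59.3 and 57.2 CPM in cKO (log2 fold change -0.31 with an SE of 0.0998, adjusted p-value 0.0453 with DESeq2 and 0.153 with edgeR). This count covers the whole gene with its introns and does not measure the deleted exons. Of 12 DP markers, all were detected in every library, and they summed to between 6632 and 7508 CPM, with 2 decreased in cKO (DESeq2 adjusted p-value under 0.05, at least 1.2-fold) and 10 not called by these criteria. Of all genes tested, 2.14% were increased and 1.57% decreased. Of 8 markers of mature single positive cells, 3 were increased, 1 was decreased and 4 were not called, and they summed to 566 and 558 CPM in WT and 578 and 506 CPM in cKO. The part of these markers in the results below was not tested.

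In every library, WT and cKO alike, Tcf12 had by far the most fragments of the 6 genes, and the smallest numbers came from Id1. The ranges given here span the libraries of both genotypes. Tcf12 (chromosome 9, 71844252 to 72111819, minus strand) was counted with between 52295 and 59374 fragments per library. Tcf4 (chromosome 18, 69344492 to 69687967, plus strand) had between 10263 and 12020, and Tcf3 (chromosome 10, 80409165 to 80433653, minus strand) between 6966.5 and 9348. Among the ID genes, Id3 (chromosome 4, 136143822 to 136145392, plus strand) had between 1828 and 2485 fragments. Id2 (chromosome 12, 25093799 to 25096092, minus strand) had between 343 and 586, and Id1 (chromosome 2, 152736251 to 152737410, plus strand) between 48 and 128.5. Some deposited counts were fractional. The intervals counted for the 6 genes overlapped no other gene of the table. In the RefSeq annotation of GRCm38.p6, Gm31439 lies on the opposite strand within Tcf4, and the other 5 overlap no gene.

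Long genes collect more fragments, so levels of different genes were compared per kb of gene. The order of mean CPM per kb over the 4 libraries was Id3, Tcf3, Tcf12, Id2, Id1 and Tcf4. Id3 was at 29.9 ± 3.67 CPM per kb in WT (SD, n = 2), which placed it above 98.6% of the genes with a mean of at least 1 CPM. Tcf3 was at 7.71 ± 0.190 CPM per kb in WT and Tcf12 at 4.57 ± 0.0196 CPM per kb, above 91.9% and 85.6% of these genes. Id2 was at 4.52 ± 1.03 CPM per kb in WT. The ranges of Tcf12 (4.56 to 5.42 CPM per kb) and Id2 (3.79 to 5.25 CPM per kb) over the 4 libraries overlapped, so these neighbours were not separated by their spread. All other neighbours in the order had ranges that did not overlap. Id1 was at 2.40 ± 0.279 and Tcf4 at 0.710 ± 0.0126 CPM per kb in WT, the latter above 33.3% of genes. These levels mix exons and introns in unequal parts, since exons of the RefSeq annotation make up 100% of Id1, 60.7% of Id3, 55.4% of Id2, 15.4% of Tcf3, 12.3% of Tcf4 and 3.49% of Tcf12.

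**Figure D1:**
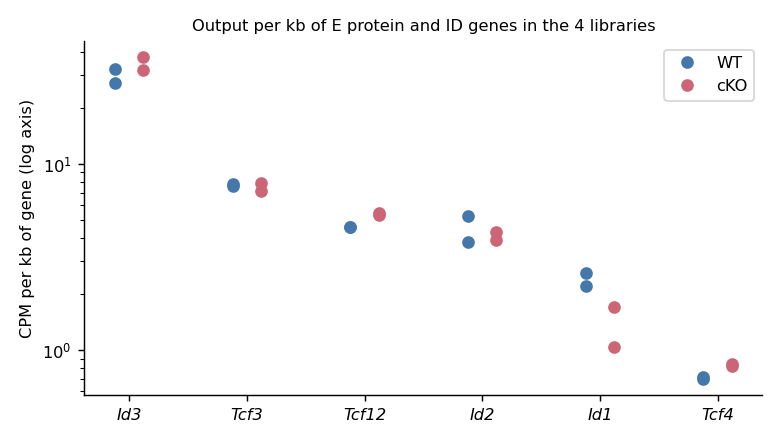
Output of the 6 genes in CPM per kb of gene on a log axis, with 1 point per library (blue, WT, n = 2; red, cKO, n = 2). Id3 lies highest, between 27.3 and 37.3 CPM per kb, the points of Tcf12 and Id2 overlap, and Tcf4 lies lowest, between 0.701 and 0.840 CPM per kb.

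Without Tox4, the 2 long E protein genes, Tcf12 and Tcf4, were higher by about the same small factor, Tcf3 stayed near its WT level, and the ID genes were scattered. None of the 6 genes met all 3 criteria of the study (adjusted p-value under 0.05, fold change of at least 1.2, mean CPM of at least 1), which 3.71% of the 11625 genes tested did with the DESeq2 Wald test (2.14% increased and 1.57% decreased). The adjusted p-value alone was under 0.05 for 1 of 6, Tcf12, against 3.86% of genes tested. An unadjusted DESeq2 p-value under 0.05 was found for 2 of 6, Tcf12 and Tcf4, against 13.5%. With edgeR 0 of 6 were called, against 0.499% of genes tested (0.413% increased and 0.086% decreased), and 3 of 6 (Tcf12, Tcf4 and Id1) had an unadjusted p-value under 0.05, against 15.6%. The cKO libraries were both higher than either WT library in 2 of 6 genes, against 24.9% of genes tested, and both lower in 1 of 6, against 24.0%. The median log2 fold change was 0.09 over the 6 genes and 0.00 over all genes tested.

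**Figure D2:**
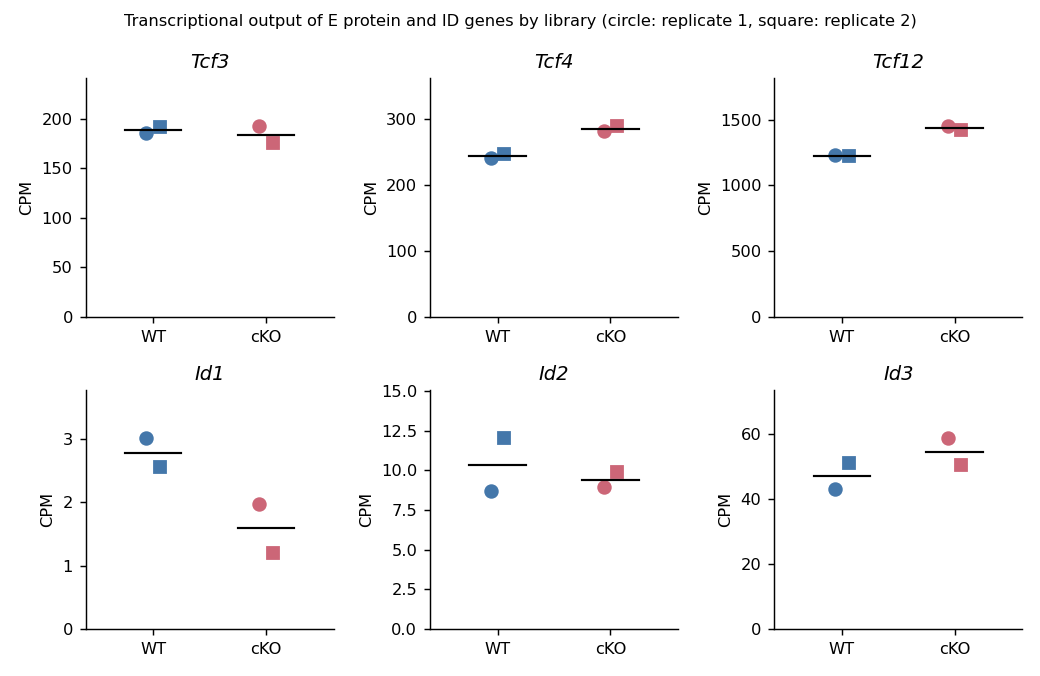
CPM of each gene in the 4 libraries (circles, replicate 1; squares, replicate 2; black lines, mean of the 2 libraries of a genotype), each panel on its own axis from 0. The cKO libraries lie above the WT libraries in Tcf12 and Tcf4 and below them in Id1, and the genotypes overlap in Tcf3, Id2 and Id3.

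Tcf12, which encodes HEB, the E protein tied most closely to the DP stage, measured 1227 and 1219 CPM in WT against 1450 and 1422 CPM in cKO. The genotypes did not overlap, and replicates of a genotype differed by far less than the genotypes. The mean was 1223 ± 5.24 CPM in WT and 1436 ± 19.9 CPM in cKO (SD, n = 2), which put the log2 fold change at 0.23 with an SE of 0.0654 (DESeq2 adjusted p-value 0.0160). As a fold change this was 1.17, with a 95% interval from 1.07 to 1.28, so Tcf12 missed the criterion of 1.2-fold. The adjusted p-value rested on the test and on all 4 libraries. It was 0.153 with edgeR and 0.114 with limma voom. Without WT replicate 1 it was 0.200, without WT replicate 2 0.0803, without cKO replicate 1 0.688 and without cKO replicate 2 0.614, with log2 fold changes from 0.22 to 0.24.

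Tcf4, the E protein of plasmacytoid dendritic cells, was at 241 and 247 CPM in WT and at 281 and 289 CPM in cKO, and the genotypes did not overlap. The log2 fold change was 0.22 (SE 0.0751), or 1.17-fold with a 95% interval from 1.05 to 1.29, and the DESeq2 adjusted p-value of 0.0675 missed the threshold. Leaving out 1 library at a time gave log2 fold changes from 0.19 (WT replicate 1 left out) to 0.25. Markers of plasmacytoid dendritic cells were also read. Siglech, a receptor of these cells, was at 2.37 and 1.21 CPM in WT and at 0.416 and 0.729 CPM in cKO. The 8 markers summed to 635 and 684 CPM in WT and 702 and 662 CPM in cKO, nearly all of it from Ccr9, a chemokine receptor that DP cells carry. The 7 markers without Ccr9 summed to 19.5 and 14.2 CPM in WT and 13.2 and 11.8 CPM in cKO, and of the 8 markers 0 were at 0 fragments in either WT library, 2 in cKO replicate 1 and 1 in cKO replicate 2. The 8 markers of B cells, which express Tcf4 and Tcf3, summed to 23.3 and 18.3 CPM in WT and 25.9 and 23.3 CPM in cKO. The 4 of them with a mean of at least 1 CPM had a median log2 fold change of -0.12, with 2 higher in cKO, and 0 were called. Blnk, a signalling adaptor, was at 9.31 and 5.46 CPM in WT and 11.7 and 11.1 CPM in cKO, whereas Cd79b, a chain of the B cell receptor, was at 4.90 and 3.49 CPM in WT and 4.14 and 2.31 CPM in cKO. Its partner Cd79a was below 1 CPM, at 0.188 and 0.308 CPM in WT and 0.859 and 0.528 CPM in cKO. Of the 8 markers, 1 was at 0 fragments in cKO replicate 1 and 0 in the other libraries. The part of either cell type in the value of Tcf4 was not tested. In these bulk libraries, more cells of a type and more RNA per cell cannot be told apart.

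Tcf3, whose alternatively spliced E2a products are the founding E proteins, was at 185 and 192 CPM in WT and at 193 and 175 CPM in cKO. The genotypes overlapped. The log2 fold change was -0.04 (SE 0.0837, DESeq2 adjusted p-value 0.904), with a 95% interval from a fold change of 0.868 to one of 1.09. It ranged from -0.10 to 0.02 when 1 library was left out, the last without cKO replicate 2, and was -0.07 without WT replicate 1.

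**Figure D3:**
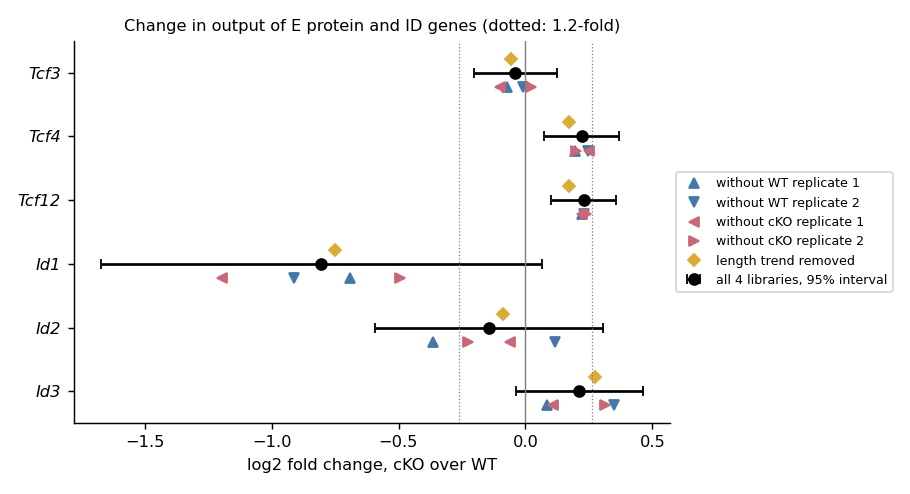
Log2 fold change (cKO over WT) of each gene: black points and bars, DESeq2 estimate and 95% interval from the 4 libraries; triangles, estimates without 1 library; diamonds, with a trend by gene length removed; dotted lines, 1.2-fold. The intervals of Tcf12 and Tcf4 lie above 0, and those of the other 4 genes include it.

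Within a library, the ratio of 2 genes does not depend on how libraries are scaled. The log2 ratio of Tcf12 to Tcf3 was 2.73 and 2.67 in the WT and 2.91 and 3.02 in the cKO libraries. That of Tcf4 to Tcf3 was 0.38 and 0.36 in WT and 0.54 and 0.72 in cKO. Both ratios were higher in both cKO libraries, by 0.27 and 0.26. The ratio of Tcf12 to Tcf4 overlapped between genotypes, with a difference of 0.01. Across 6 ratios compared, the exact two-sided permutation p-value was 0.333 for 4, including the first pair, which is the smallest that 2 against 2 libraries can give (0.500 after Benjamini-Hochberg adjustment), and 1.0 for 2. Of the 6, the log2 ratio of Id3 to Id2 differed most, at 2.30 and 2.08 in WT and 2.72 and 2.35 in cKO (0.34 higher). As shares of the summed E protein output per kb, Tcf3 made up 59.3% ± 0.626 in WT and 54.8% ± 1.43 in cKO (SD, n = 2). Tcf12 made up 35.2% ± 0.645 and 39.2% ± 1.07, and Tcf4 5.47% ± 0.0199 and 6.06% ± 0.362. Per kb the order of the 3 genes was the same in both genotypes. As shares of CPM not divided by length, the order was the reverse for Tcf3 and Tcf12, with Tcf12 at 73.9% in WT and 75.4% in cKO, Tcf4 at 14.7% and 15.0%, and Tcf3 at 11.4% and 9.65%.

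Tcf12 and Tcf4 are among the longest genes of the table, and the change in output varied with gene length. The 315 genes tested that are at least as long as Tcf12 had a median log2 fold change of 0.02, with quartiles of -0.15 and 0.24, and 26.0% of them had a value at least as high as that of Tcf12. Among all genes tested 15.2% did. An adjusted p-value under 0.05 with higher output was found for 7.94% of these long genes and for 2.22% of all genes tested. The 543 genes no longer than Id2 had a median of -0.13. With the trend by length removed from each library, the log2 fold change of Tcf12 was 0.17 (DESeq2 adjusted p-value 0.128) and that of Tcf4 0.17 (0.226). The part of gene length in the change of either gene was not tested further.

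**Figure D4:**
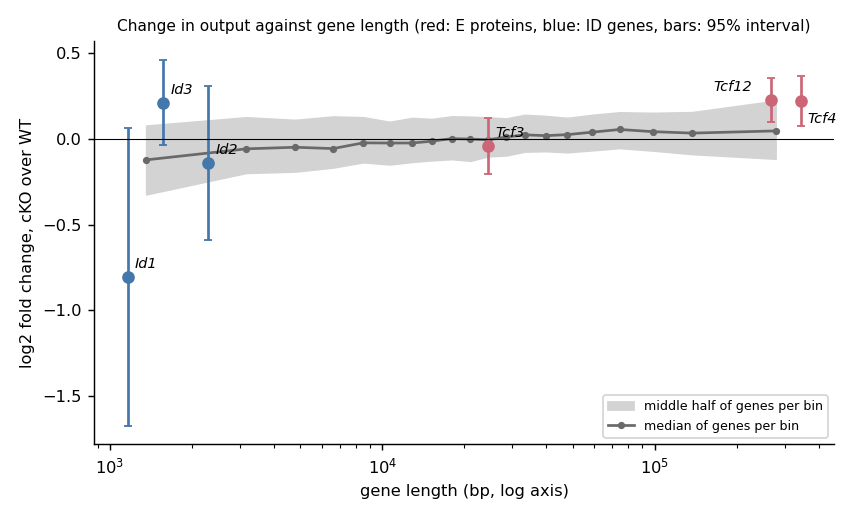
Log2 fold change (cKO over WT) against gene length on a log axis. The grey line and band give the median and the quartiles of the genes tested in 20 bins of equal number, and the points with 95% intervals give the E protein genes (red) and ID genes (blue). Tcf12 and Tcf4 lie at the right edge above the median of long genes, and the short ID genes lie at the left with wide intervals.

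Id3, the main ID gene of DP cells by output, was at 42.9 and 51.04 CPM in WT and at 58.7 and 50.4 CPM in cKO. WT replicate 2 lay above cKO replicate 2, so the genotypes overlapped. The log2 fold change was 0.21 (SE 0.128, DESeq2 adjusted p-value 0.489), with a 95% interval from a fold change of 0.974 to one of 1.38. Leaving out 1 library gave values from 0.08 (WT replicate 1 left out) to 0.35 (WT replicate 2 left out). Its point estimate was close to those of Tcf12 and Tcf4 before the trend by length was removed. With that trend removed, the log2 fold change was 0.27 for Id3 (DESeq2 adjusted p-value 0.161), 0.17 for Tcf12 and 0.17 for Tcf4. The log2 ratio of Tcf12 to Id3, not adjusted for length, was 4.84 and 4.58 in WT and 4.63 and 4.82 in cKO. The ratio of Tcf3 to Id3 was 2.11 and 1.91 in WT and 1.72 and 1.80 in cKO, lower in both cKO libraries by 0.26 on the log2 scale.

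Id2 was at 8.70 and 12.04 CPM in WT and at 8.93 and 9.91 CPM in cKO. Both cKO libraries lay between the WT libraries. The log2 fold change was -0.14 (SE 0.229, DESeq2 adjusted p-value 0.866), with a 95% interval from a fold change of 0.663 to one of 1.24, and its direction turned to 0.12 without WT replicate 2. Without WT replicate 1 it was -0.36. The 8 markers of innate-like T and NK cells, in which Id2 is high, summed to 21.1 and 16.1 CPM in WT and 17.5 and 17.3 CPM in cKO. Most of this sum was Il2rb, at 16.5 and 12.1 CPM in WT and 11.9 and 10.01 CPM in cKO. Gzma went the other way, at 2.06 and 1.87 CPM in WT and 3.10 and 5.03 CPM in cKO. It was the 1 marker higher in cKO among the 3 with a mean of at least 1 CPM. Ncr1, which defines NK cells, was at 0 fragments in 3 of the 4 libraries. The 8 markers of myeloid cells, which also express Id2, summed to 22.5 and 22.1 CPM in WT and 18.9 and 19.2 CPM in cKO, with 0 markers at 0 fragments. Most of the sum was Cst3, a protease inhibitor made by many cell types, at 15.7 and 16.04 CPM in WT and 14.4 and 13.4 CPM in cKO. Of the 3 markers with a mean of at least 1 CPM, 2 were higher in cKO, among them the integrin chain Itgam at 1.06 and 1.07 CPM in WT and 1.51 and 1.53 CPM in cKO, and 0 were called. The markers below that mean, read from few fragments, all had negative log2 fold changes: Lyz2 -1.36, Csf1r -1.56, Tyrobp -0.70, Itgax -1.05 and Adgre1 -0.24. Itgax and Adgre1 overlapped between genotypes. The part of these cell types in the value of Id2 was not tested.

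Id1 was at 3.01 and 2.56 CPM in WT and at 1.98 and 1.21 CPM in cKO, from 128.5, 124.5, 76 and 48 fragments. The genotypes did not overlap. The log2 fold change was -0.80 (SE 0.443), a fold change of 0.572 with a 95% interval from 0.314 to 1.05. Its unadjusted p-value was 0.0693 with DESeq2, which gave it no adjusted value because of its low count, and the edgeR adjusted p-value was 0.342. The estimate ranged from -1.19 without cKO replicate 1 to -0.49 without cKO replicate 2, and was -0.69 without WT replicate 1. Markers of endothelial and stromal cells, in which Id1 and Id3 are high, were also read. The 8 markers summed to 404 and 361 CPM in WT and 417 and 390 CPM in cKO, nearly all from Pecam1, an adhesion molecule that these libraries hold at a high level. The 7 others summed to 1.76 and 1.71 CPM in WT and to 1.15 and 0.780 CPM in cKO. Kdr, a receptor that defines endothelium, was at 0.375 and 0.164 CPM in WT and at 0 and 0.0252 CPM in cKO, and Cdh5 was at 0.164 CPM or less in every library. Epcam, an epithelial gene and the highest of the 7 in every library, overlapped between genotypes, with 0.657 and 1.11 CPM in WT and 0.781 and 0.629 CPM in cKO. Pdgfra and Cldn5 were at 0 in both WT libraries and in cKO replicate 1, and at 0.0252 CPM in cKO replicate 2. Of the 8 markers, 2 and 2 were at 0 fragments in WT and 3 and 1 in cKO. Their part in the value of Id1 was not tested.

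As shares of the summed ID output per kb, Id3 made up 81.2% ± 0.226 in WT and 86.3% ± 0.909 in cKO (SD, n = 2). Id2 made up 12.2% ± 1.33 and 10.3% ± 1.75, and Id1 6.62% ± 1.55 and 3.38% ± 0.842. In CPM not divided by length, Id3 made up 78.2% and 83.1%. The fourth ID gene, Id4, which was not among the chosen genes, had 4 and 1 fragments in WT and 0 and 0 in cKO.

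The other genes of the E protein pathway were taken from 3 lists. Among 17 partners and cofactors of E proteins, 8 had a mean of at least 1 CPM, of which 1 was increased in cKO, 0 were decreased and 7 were not called (all genes tested: 2.14% increased, 1.57% decreased). Their median log2 fold change was 0.07. The increased gene was Lmo4, a LIM-only protein related to Lmo2 and a binding partner of the adaptor Ldb1. Lmo4 was at 75.8 and 77.2 CPM in WT and at 128 and 127 CPM in cKO, with a log2 fold change of 0.74 and an SE of 0.0877 (adjusted p-value 3.84e-14 with DESeq2 and 0.0108 with edgeR), and without WT replicate 1 the value was 0.72. It was the 1 gene of the lists called in every fit, those without 1 library included. Ldb1 itself was at 141 ± 1.76 CPM in WT and 137 ± 15.1 CPM in cKO (SD, n = 2; log2 fold change -0.05, DESeq2 adjusted p-value 0.888). Cbfa2t3, a corepressor that binds E proteins, had a log2 fold change of 0.29 (DESeq2 adjusted p-value 0.155). It was 0.14 without WT replicate 1 (0.998), 0.45 and called without WT replicate 2 (0.0183), 0.18 without cKO replicate 1 (1.0) and 0.39 without cKO replicate 2 (0.466). Ep300, a histone acetyltransferase recruited by E proteins, had one of 0.12 (adjusted p-value 0.559). The bHLH partners that drive leukaemia when expressed in T cells were at the limit of detection, Tal1 at 0.188 CPM or less and Lyl1 at 0.468 CPM or less in every library. Lmo2 was at 1.29 and 0.329 CPM in WT and 0.0260 and 0.604 CPM in cKO.

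Of 22 genes known to be under E protein control in thymocytes, 20 had a mean of at least 1 CPM. Of these, 2 were increased, 4 were decreased and 14 were not called, where 2.14% and 1.57% of all genes tested were increased and decreased, with a median log2 fold change of 0.01. The increased genes were Notch1, the receptor that drives T lineage commitment, and Il7r, the interleukin-7 receptor chain. Notch1 was at 162 and 176 CPM in WT and 231 and 237 CPM in cKO (log2 fold change 0.47 with an SE of 0.0831, DESeq2 adjusted p-value 3.59e-06). Il7r was at 61.96 and 61.7 CPM in WT and 83.1 and 75.8 CPM in cKO (log2 fold change 0.36 with an SE of 0.0999, DESeq2 adjusted p-value 0.0125). The edgeR adjusted p-values were 0.0510 for Notch1 and 0.124 for Il7r.

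The decreased genes were Zbtb16, Ccr7, Tcf7 and Rag1. Zbtb16, the PLZF factor of innate-like T cells, was at 20.5 and 12.7 CPM in WT and 7.55 and 5.23 CPM in cKO (log2 fold change -1.38 with an SE of 0.256, DESeq2 adjusted p-value 1.21e-05). Ccr7, a chemokine receptor of thymocytes that pass selection, was at 255 and 243 CPM in WT and 213 and 181 CPM in cKO (log2 fold change -0.34, DESeq2 adjusted p-value 0.00714). Tcf7, which encodes the T cell factor TCF-1, was at 4019 and 4236 CPM in WT and 3679 and 2919 CPM in cKO (log2 fold change -0.33, DESeq2 adjusted p-value 0.0174). Rag1, a subunit of the V(D)J recombinase, was at 918 and 1169 CPM in WT and 882 and 802 CPM in cKO (log2 fold change -0.31, DESeq2 adjusted p-value 0.0499). The edgeR adjusted p-values were 0.103, 0.164, 0.253 and 0.291 in this order. Without WT replicate 1 the log2 fold changes were 0.40 for Notch1 (DESeq2 adjusted p-value 0.00733), 0.35 for Il7r (0.270), -1.005 for Zbtb16 (0.140), -0.32 for Ccr7 (0.213), -0.37 for Tcf7 (0.991) and -0.49 for Rag1 (2.42e-05). Of the 4 fits without 1 library, Notch1 was called in 3, Zbtb16 and Ccr7 in 2 each, Tcf7 and Rag1 in 1 each and Il7r in 0. Rag1 ranged from a log2 fold change of -0.12 without WT replicate 2 to -0.49 without WT replicate 1 and, among other settings, was not called with TMM or total count factors, without independent filtering or with at least 1 CPM required in every library. Tcf7 ranged from -0.17 without cKO replicate 2 to -0.49 without cKO replicate 1.

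Other well known targets of E proteins at this stage were not called. Rag2, the other recombinase subunit, had a log2 fold change of 0.06 (SE 0.139). Ptcra, the pre-T cell receptor alpha chain, had one of -0.03 (SE 0.265), from a mean of 6.44 ± 1.15 CPM in WT (SD, n = 2). Cd4 had one of 0.05 (SE 0.0826) and Gfi1, a repressor, one of 0.17 (SE 0.113). Their DESeq2 adjusted p-values were between 0.568 and 0.986. Without WT replicate 1 the values were -0.11 for Rag2 and -0.06 for Cd4, which turned their direction, -0.21 for Ptcra and 0.02 for Gfi1. Hes1, a Notch target, was at 1.48 CPM or less in every library.

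Regulators upstream of the Id genes were the third list. Of 22 genes, 17 had a mean of at least 1 CPM, of which 0 were increased, 1 was decreased and 16 were not called (2.14% and 1.57% of all genes tested were increased and decreased), with a median log2 fold change of 0.04. The decreased gene was Egr1, the immediate early factor through which T cell receptor signals reach Id3. Egr1 was at 19.1 and 16.9 CPM in WT and 10.6 and 11.5 CPM in cKO (log2 fold change -0.70 with an SE of 0.178, DESeq2 adjusted p-value 0.00406, edgeR adjusted p-value 0.0932), and it was not called in any of the 4 fits without 1 library, where its log2 fold change ranged from -0.78 to -0.62 (the latter without WT replicate 1). Egr2 and Egr3 had at most 0.868 and 1.03 CPM in any library. The signal transducer Smad7, which inhibits TGF-beta signalling, had a log2 fold change of -0.16 (DESeq2 adjusted p-value 0.625) that turned to 0.01 without WT replicate 1, and Tgfbr2, a TGF-beta receptor, had one of 0.15 (0.393).

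**Figure D5:**
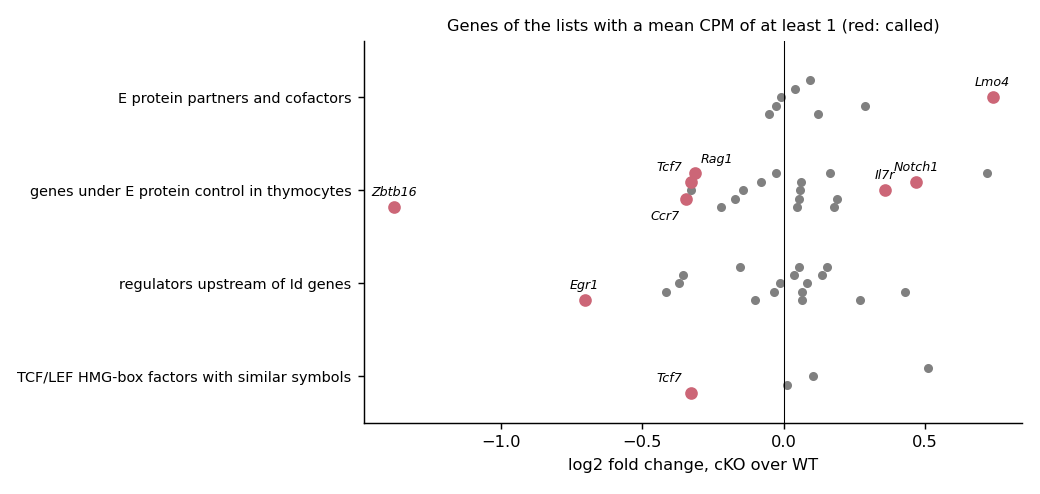
Log2 fold change (cKO over WT) of each gene with a mean of at least 1 CPM in 4 gene lists, 1 row per list (red, called at the 3 criteria; grey, not called; vertical scatter within a row separates points). Lmo4 has the highest value at 0.74 and Zbtb16 the lowest at -1.38, while most genes lie near 0.

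For each of the 6 genes, the genes with the most similar course over the 4 libraries were sought among 8152 or 8153 genes with a mean of at least 10 CPM, by Pearson's r of log2(CPM + 0.5). The closest were Rb1, Apaf1 and Acsl3 for Tcf12, and Arhgap24, Nebl and Rbsn for Tcf4. They were 2810004N23Rik, Hdac7 and Mta2 for Tcf3, Ifit2, Ehd4 and Rabgef1 for Id3, Hist2h2aa2, Hist2h2aa1 and Mical2 for Id2, and Phrf1 and Szrd1 were among the closest for Id1. With 4 libraries r is easily high: 115 genes had an r over 0.99 with Tcf12, 94 with Tcf4 and between 22 and 69 with each of the others, so the names describe a shape over 4 points.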

How the data were processed

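Reads were filtered by the authors with fastp 0.13.1 and aligned to GRCm38 (RefGene annotation) with STAR 2.7.9a. The submitters' processing notes also name featureCounts 1.6.1, whose layout the table has. The deposited table held expected counts, of which 8.61% were fractional, over intervals that include introns, and the deposited gene length in bp. The labels describe poly(A) capture, the methods enrichment of labelled RNA and removal of ribosomal RNA. Whether counting used strand, or left out marked duplicates, is not given in the sources used here, and no spike-in scaling was used. Fragments are not independent molecules.

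Counts were rounded. CPM used the table's totals. The test, from the study's methods, was DESeq2's (Wald, median-of-ratios size factors, unshrunken fold changes, no covariates), fitted on 24984 genes with Benjamini-Hochberg adjustment. Calls were counted over the 11625 genes at a mean CPM of 1 or more. A gene was called at an adjusted p-value under 0.05 and a fold change of at least 1.2. Intervals of 95% assume normal estimates. Tools were Python 3.11.15, limma 3.58.1, edgeR 4.0.16 and DESeq2 1.42.0 under R 4.3.3. Procedures were tested on simulated data. The simulation held no length trend and only changes larger than that of Tcf12, so it does not bear on changes of that size.

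Libraries were grouped by title. The members and gene lists were chosen with earlier results of these data known, so a list's count is no independent evidence. Named genes were the members, Tox4, called list genes, a fixed part of the lists and the 3 genes most like each member, of which some are not reported here. Alternatives were edgeR, limma voom, TMM and total count factors, a length trend removed, filters, the replicate block and leaving out each library. Across genes, same-numbered libraries did not deviate together (r = -0.03 over 11625 genes). The share of Rn45s, the ribosomal RNA precursor, did go with the replicate number. It was 2.71% in WT replicate 1 and 2.44% in cKO replicate 1, against 4.3% in WT replicate 2 and 4.05% in cKO replicate 2.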

Additional observations from a re-analysis of the deposited data

How the results depend on the processing

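Over 15 alternatives, the log2 fold changes of Tcf12, Tcf4, Id1 and Id3 kept their direction. Those of Tcf3 and Id2 did so except without cKO replicate 2 for Tcf3 (0.02, range without 1 library -0.10 to 0.02) and without WT replicate 2 for Id2 (0.12, range -0.36 to 0.12). The settings without the mean CPM criterion, the fold change criterion or independent filtering keep the main fold changes, so they could not turn a direction. The log2 fold change of Tcf12 was 0.23 with edgeR, limma voom and the replicate block in DESeq2 or edgeR, and 0.17 with a length trend removed. Its adjusted p-value was above 0.05 in these fits (0.153, 0.114, 0.280, 0.247 and 0.128 in this order) and in each fit without 1 library (log2 fold change 0.22 to 0.24, adjusted p-value 0.0803 to 0.688). Over all alternatives it ranged from 0.0136 to 0.688, and the cause was not tested. For the other 5 genes the adjusted p-values given were 0.0579 or more.

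Over all genes, DESeq2 called 249 increased and 182 decreased genes. The counts were 48 and 10 with edgeR, 50 and 11 with limma voom, 121 and 72 with the replicate block in DESeq2, 19 and 9 with the replicate block in edgeR, and from 61 to 320 and from 28 to 126 without 1 library, where fewer samples entered and the lone library of a genotype was assumed to vary like the other genotype. In the 4 lists together, 3 increased and 5 decreased genes became 1 and 0 with edgeR, 2 and 0 with limma voom, 3 and 1 with the replicate block in DESeq2, 1 and 1 with the replicate block in edgeR, and from 1 to 4 and from 0 to 3 without 1 library. With the replicate block in DESeq2 the list genes called were Lmo4, Notch1, Zbtb16 and Tcf7l2, while Il7r (adjusted p-value 0.183), Ccr7 (0.0581), Tcf7 (0.0950), Rag1 (0.257) and Egr1 (0.0924) were not called. Id1 had only 48 to 128.5 fragments per library, and the part of depth in its wide interval was not tested.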

Other observations

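The TCF/LEF factors, HMG-box proteins that share only the symbol with the E proteins, were the last list. Of 4 genes, all with a mean of at least 1 CPM, 0 were increased, 1 was decreased (Tcf7, which is also on the list of genes under E protein control) and 3 were not called (2.14% and 1.57% of all genes tested were increased and decreased), with a median log2 fold change of 0.06. Lef1, the partner of Tcf7 in early T cells, was at 2160 ± 90.6 CPM in WT and 2328 ± 163 CPM in cKO (SD, n = 2; log2 fold change 0.11, DESeq2 adjusted p-value 0.577). Tcf7l2, a Wnt effector, was at 345 and 463 CPM in WT and 559 and 596 CPM in cKO, for a log2 fold change of 0.51 with an SE of 0.222 (DESeq2 adjusted p-value 0.216). With the replicate block in DESeq2 its adjusted p-value was 3.3e-04, and it was also called without WT replicate 1, without WT replicate 2 and with at least 1 CPM required in every library. It was not called with edgeR (adjusted p-value 0.167), with limma voom (0.142), with the replicate block in edgeR, without cKO replicate 1 (1.0) or without cKO replicate 2 (0.998), nor under the other alternatives run. Tcf7l2 was named after its values were seen.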
